A study of Homo sapiens with 2 samples.

Results

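The ubiquitin-specific proteases (USPs) were described in RNA-seq of HCT116 cells, an epithelial line from a human colon carcinoma. The members were all genes of the count table whose symbol is USP followed by a number and at most an X or an L, which gave 51 genes of 60623 named ones. Of these, 44 had a mean of at least 1 CPM (TMM-scaled counts in units of 1e6 mapped counts) and are called measured below, against 13217 genes of the whole table. The rule used names alone and no measured value. Like the role groups and the gene lists, it was set with earlier results of these data known. The study compared 1 culture transfected with an siRNA against KAT7 (siKAT7) with 1 culture transfected with a non-specific siRNA (siControl), both of wild-type genotype per the labels and both transfected with Lipofectamine 2000. With 1 library per group there is no replicate, so no difference has a test. KAT7, also called HBO1, is a histone acetyltransferase of the MYST family.

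Ubiquitin is a small protein that cells attach to other proteins to mark them for the proteasome or to change their activity. USPs are cysteine proteases that take ubiquitin off again, and they form the largest family of deubiquitinases in human cells. Members differ in the substrates and places they serve, from histones and DNA repair foci to endosomes, the mitochondrial surface and the spliceosome, and several work only with a partner protein. In the count table's own annotation all 51 members carry the Pfam ubiquitin hydrolase domain UCH, and 12 of them also carry the zinc finger zf-UBP.

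Expected counts of named genes summed to 23533186 in siKAT7 and 23450331 in siControl. The targeted gene, KAT7, had 287.22 expected counts (12.7 CPM) in siKAT7 and 442.94 (18.2 CPM) in siControl. Its log2 ratio was -0.52, with a 95% counting interval of -0.74 to -0.31, so the message was partly lowered. At 1.44-fold lower, KAT7 itself was under the 1.5-fold limit used below. The authors' deposited table did not mark it significant either, by a mark that did not rest on their adjusted p-value alone. Of 10 epithelial and colon markers, 6 were measured, among them KRT8, KRT18, KRT19, EPCAM, CDH1 and CLDN4, while LGALS4 and CEACAM5 had at most 3 counts. Endothelial markers had 0 of 5 measured, blood cell markers 1 of 7 (CD68) and fibroblast markers 2 of 8 (COL1A1 and ACTA2), with PTPRC, LUM, THY1 and PECAM1 at 0 in both libraries. In bulk RNA, fewer cells of a type and less RNA per cell cannot be told apart.

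Throughout, a log2 ratio is siKAT7 over siControl of counts scaled with TMM factors, which set most genes to an equal level. The values in brackets after it are its exact Clopper-Pearson 95% interval. It covers counting error only, because PCR copies were not told apart by molecular identifiers and no second culture shows how far cultures vary. A gene was counted as higher or lower when it differed by at least 1.5-fold (0.58 on the log2 scale) with an interval that excluded 0.

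No USP gene reached 1.5-fold in either direction. Of the 44 measured members, 0 were higher and 0 were lower, against 3.92% of all measured genes higher and 3.91% lower. The members' log2 ratios ran from -0.50 in USP46 to 0.36 in USP15. Their median was -0.08, beside -0.0048 over all measured genes. By the interval alone, 15 members were lower and 4 were higher, where 22.0% of all measured genes were lower and 23.0% higher. The members that were lower beyond counting error were USP46, USP16, USP42, USP40, USP18, USP1, USP19, USP31, USP4, USP22, USP12, USP21, USP36, USP11 and USP5. Those that were higher were USP15, USP2, USP10 and USP7.

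The scaling of the libraries moved these numbers. Scaling by total counts lowered log2 ratios by 0.11, and the median of all genes was then -0.11 and that of the USP members -0.19. Under that scaling 1 member, USP46, was 1.5-fold lower, at -0.61, beside 6.37% of all genes, and 0 were higher, beside 2.68%. At a 2-fold limit with TMM scaling 0 members were higher and 0 lower, beside 1.35% and 1.09% of all genes. By the interval alone 19 members were then lower and 0 higher, beside 35.6% and 13.3% of all genes, so none of the 4 higher members stayed so under total-count scaling. With DESeq2 size factors the numbers were 15 lower and 4 higher, as with TMM. USP3, USP13, USP14, USP24, USP32 and USP37 had ratios above 0 with TMM and below 0 with total counts, and no direction is given for them. With DESeq2 size factors no measured member changed sign.

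**Figure D1:**
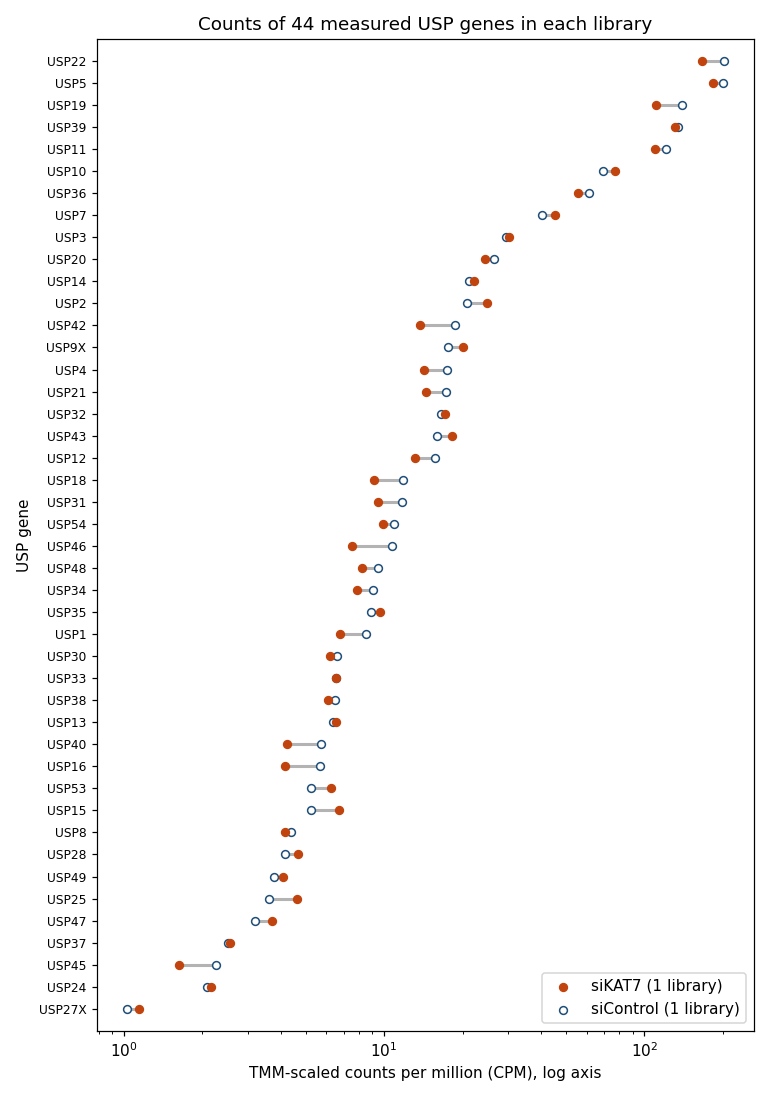
Each row is a measured USP gene, ordered by its siControl value, and the log x axis gives TMM-scaled CPM; filled points are the siKAT7 library and open points the siControl library. Members spread from about 1 CPM in USP27X to 201 CPM in USP22, while the points of 1 gene lie close together, with the widest gap in USP46 at 7.54 CPM in siKAT7 and 10.7 CPM in siControl.

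The family covered a wide range of message levels. Per length, the most abundant members in siKAT7 were USP39, at 73.1 TPM (counts per base of the deposited gene length, set to a fixed sum per library), USP5 at 70.7, USP11 at 40.2, USP22 at 39.2 and USP10 at 34.8. In siControl they were USP5 at 89.2 TPM, USP39 at 87.3, USP22 at 54.8, USP11 at 51.3 and USP19 at 42.0. USP39 and USP5 thus changed places at the top, as did USP11 and USP22 below them. TPM was used only to order genes within a library, because the deposited length may not be that of the isoform in these cells.

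At the other end, USP26, USP29, USP44, USP50 and USP51 had 0 expected counts in both libraries. USP26 and USP29 are known mainly from testis, and USP51 is a paralogue of USP22. For each of these 5, a count of 0 allows up to 3 counts, or 0.132 CPM in siKAT7 and 0.123 CPM in siControl. USP6 had 1.02 expected counts in siKAT7 and 3.03 in siControl, and USP41 had 1.12 and 5.73 in the same order. These 7 genes were left out of the ratios above.

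The 3 enzymes that work with the WD-repeat protein WDR48 were all below their siControl level. WDR48 (also called UAF1) binds USP1, USP12 and USP46 and switches on their activity. USP46 had 171 expected counts (7.54 CPM) in siKAT7 and 260 (10.7 CPM) in siControl, a log2 ratio of -0.50 (-0.79 to -0.22). USP12 had 297 counts (13.1 CPM) in siKAT7 and 383 (15.7 CPM) in siControl, or -0.26 (-0.49 to -0.04). USP1, which deubiquitinates FANCD2 and PCNA after DNA damage, had 153 counts (6.75 CPM) in siKAT7 and 208 (8.55 CPM) in siControl, or -0.34 (-0.65 to -0.03). In GENCODE 29 on GRCh38, USP46 (ENSG00000109189) lies on chromosome 4 from 52590972 to 52659335 on the reverse strand, USP12 (ENSG00000152484) on chromosome 13 from 27066142 to 27171896 on the reverse strand, and USP1 (ENSG00000162607) on chromosome 1 from 62436297 to 62451804 on the forward strand. All 3 intervals excluded 0, where 22.0% of all measured genes were lower by the interval. The intervals of USP46 and USP1 reached past 1.5-fold, so counting error leaves a 1.5-fold difference possible for them. WDR48 itself had a log2 ratio of 0.04 and WDR20, a further partner of USP12 and USP46, one of 0.10, each with an interval that included 0.

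The promoter stretches of these 3 genes are shown beside those of USP15 and USP25, the 2 members with the highest ratios, so that their sequence can be compared. They come from RefSeq promoter windows on GRCh38.p14, 5′ to 3′ on the gene's own strand. Each was trimmed to the longest run before the RefSeq start that no GENCODE 29 exon covers, using the first start listed. Capitals mark matches, on either strand, to the GC box GGGCGG, the CCAAT box CCAAT, the NRF1 motif, the cyclic AMP element TGACGTCA, the ETS motif CCGGAAG or the E2F motif TTTNGCGC.
USP1 (chr1:62436145-62436296, forward strand): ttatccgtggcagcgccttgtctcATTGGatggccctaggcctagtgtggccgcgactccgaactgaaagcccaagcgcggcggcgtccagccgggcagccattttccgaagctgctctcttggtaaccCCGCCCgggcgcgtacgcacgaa
USP12 (chr13:27171897-27172061, reverse strand): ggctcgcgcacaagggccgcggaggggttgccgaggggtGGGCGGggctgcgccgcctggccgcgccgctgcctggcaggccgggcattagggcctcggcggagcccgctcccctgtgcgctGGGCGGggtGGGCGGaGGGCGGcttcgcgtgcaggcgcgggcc
USP46 (chr4:52659336-52659405, reverse strand): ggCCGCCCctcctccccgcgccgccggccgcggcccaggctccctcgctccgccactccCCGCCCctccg
USP15 (chr12:62260171-62260337, forward strand): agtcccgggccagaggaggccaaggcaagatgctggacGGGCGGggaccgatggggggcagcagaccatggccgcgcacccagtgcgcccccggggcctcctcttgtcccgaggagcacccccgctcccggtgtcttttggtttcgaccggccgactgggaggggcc
USP25 (chr21:15729732-15729981, forward strand): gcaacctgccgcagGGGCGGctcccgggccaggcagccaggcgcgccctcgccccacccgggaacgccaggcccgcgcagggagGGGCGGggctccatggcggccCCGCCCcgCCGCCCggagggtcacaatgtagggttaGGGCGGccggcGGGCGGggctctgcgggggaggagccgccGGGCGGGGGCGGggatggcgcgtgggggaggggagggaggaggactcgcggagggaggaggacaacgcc

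All 5 stretches hold a GC box, both the 3 genes with ratios below 0 and the 2 with ratios above it. Whole windows, of 300 bases from 250 before to 50 after a start, were found for 36 of the 44 measured members. Of these 36, 30 (83.3%) hold a GC box, beside 45.0% of all 35116 windows, which include non-coding genes. The ETS motif is in 27.8% of member windows and 10.3% of all windows, the CCAAT box in 27.8% and 34.6%, and the NRF1 motif in 11.1% and 5.78%. The cyclic AMP element and the E2F motif are in 0 member windows and in 1.85% and 1.79% of all windows. A match is a run of letters and says nothing of whether a factor binds there.

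**Figure D2:**
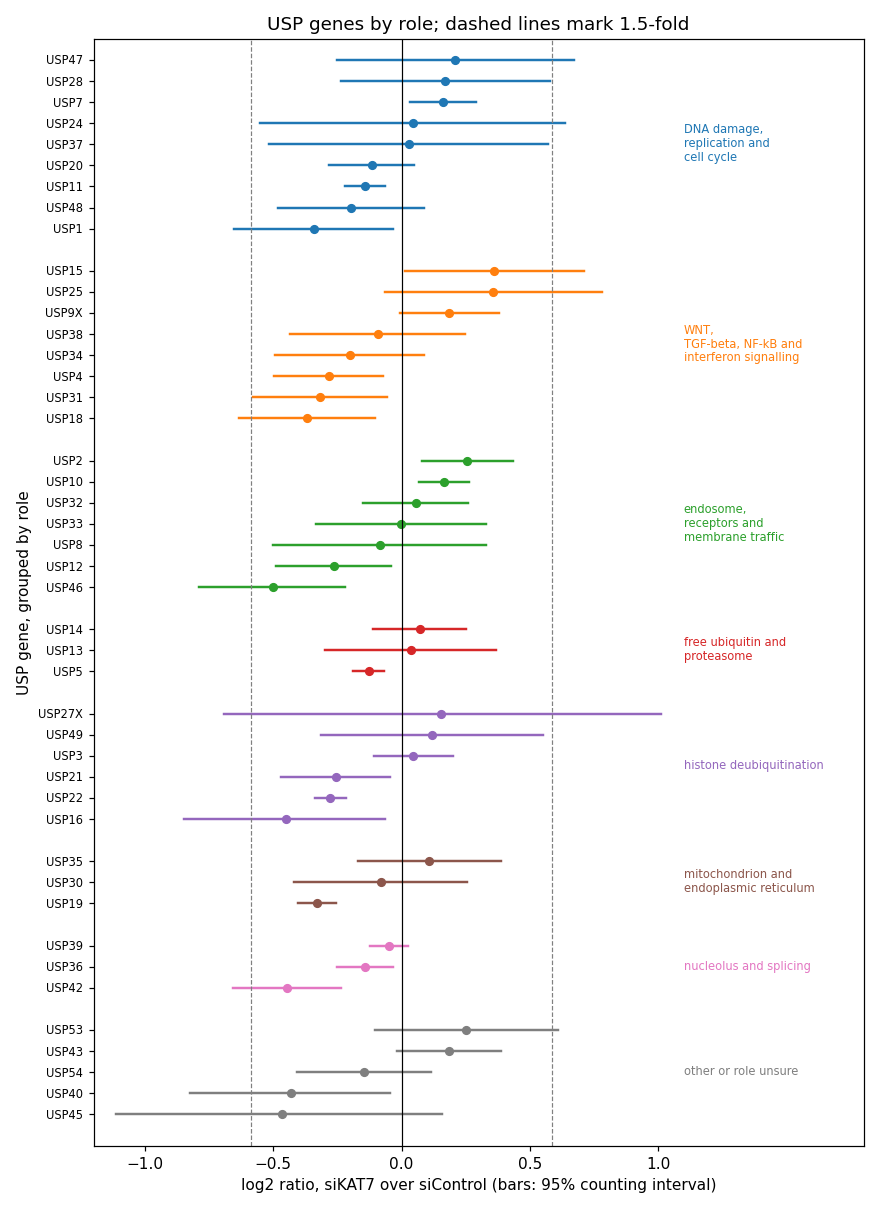
The x axis gives the log2 ratio, siKAT7 over siControl, for each measured USP gene, in groups by role (colours); points are the ratio, bars its 95% counting interval and dashed lines 1.5-fold. No point lies beyond a dashed line, and the bars are short for abundant genes such as USP5 and USP22 and long for sparse ones such as USP27X and USP45.

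Among the USPs of DNA damage, replication and the cell cycle, 1 of 9 measured members was higher and 2 were lower by the interval. Of all measured genes, 23.0% were higher and 22.0% lower by the interval. The group's median of 0.03 turned to -0.08 under total-count scaling. USP7, which keeps the ubiquitin ligase MDM2 from degradation, had 1025 counts (45.2 CPM) in siKAT7 and 984 (40.4 CPM) in siControl, or 0.16 (0.03 to 0.29). USP11, an enzyme of homologous recombination, had 2489 counts (109.8 CPM) in siKAT7 and 2950 (121 CPM) in siControl, or -0.14 (-0.22 to -0.07). Both differences were small, and the depth of these genes gave narrow intervals. Under total-count scaling USP7 was no longer higher by the interval. USP28, which acts on MYC, had 106 counts in siKAT7 and 101 in siControl, or 0.17 (-0.24 to 0.58). USP37, which opposes the degradation of cyclin A, had 58.23 counts in siKAT7 and 60.73 in siControl, or 0.03 (-0.51 to 0.57). Both intervals included 0 and lay within 1.5-fold.

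Messages of 2 replication substrates of these enzymes were lower. PCNA, the clamp that USP1 deubiquitinates, had 1502 counts (66.2 CPM) in siKAT7 and 2727 (112 CPM) in siControl, and was 1.69-fold lower. CCNA2, which encodes cyclin A, had 505.06 counts in siKAT7 and 828.8 in siControl, and was 1.53-fold lower. These were the 2 of 20 measured substrate genes past the limit, with 0 higher, a list median of -0.13 and 18 ratios below 0. Over all measured genes 3.91% were lower, 3.92% were higher and 50.7% had ratios below 0, or 66.0% under total-count scaling. MDM2 had a log2 ratio of -0.07, and the other substrates lay between -0.32 and 0.35.

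Histone deubiquitinases had 3 of 6 measured members lower by the interval and 0 higher, with a median of -0.11. Among all measured genes 22.0% were lower and 23.0% higher by the interval. USP22, the catalytic subunit of the SAGA module that takes ubiquitin off histone H2B, had 3768.53 counts (166 CPM) in siKAT7 and 4902.37 (201 CPM) in siControl, or -0.28 (-0.34 to -0.22). This interval is among the narrowest of the family, and 1.5-fold lies outside it. USP27X, a paralogue that can take the place of USP22, had 26 counts in siKAT7 and 25 in siControl, or 0.16 (-0.69 to 1.01), too few to show a difference of 1.5-fold. USP16, a histone H2A enzyme, had 94 counts (4.15 CPM) in siKAT7 and 138 (5.67 CPM) in siControl, or -0.45 (-0.85 to -0.06). USP21, also an H2A enzyme, had 329 counts in siKAT7 and 422 in siControl, or -0.26 (-0.47 to -0.05). USP3, the remaining H2A enzyme, had 687 counts in siKAT7 and 713.97 in siControl, or 0.05 (-0.11 to 0.20).

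The other subunits of the SAGA module had gene-level ratios a little below 0, each with an interval that included 0. ATXN7L3, which activates USP22, had a log2 ratio of -0.07 and ENY2 one of -0.09. ATXN7, which ties the module to SAGA, is listed under 2 identifiers, both with fractional counts. ENSG00000163635 had 58.26 counts in siKAT7 and 118.83 in siControl and was 1.90-fold lower, while ENSG00000285258 had 85.58 counts in siKAT7 and 54.17 in siControl and was 1.70-fold higher. Summed, the 2 entries had 143.84 counts in siKAT7 and 173 in siControl, or -0.16 (-0.49 to 0.16), so neither call held for the gene as a whole. ATXN7L2, a relative of ATXN7, had 68 counts in siKAT7 and 115 in siControl and was 1.57-fold lower. The 17 entries of the partner list had a median of -0.04, with 1 entry higher and 2 lower. Over all measured genes 3.92% were higher and 3.91% lower. The higher entry and 1 of the 2 lower entries were the ATXN7 identifiers, whose calls did not hold when summed.

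The members of endosomes, receptors and membrane traffic split by the interval into 2 higher and 2 lower of 7 measured. For all measured genes the shares were 23.0% higher and 22.0% lower. USP2, whose known substrates include cyclin D1, had 561.73 counts (24.8 CPM) in siKAT7 and 505 (20.8 CPM) in siControl, or 0.26 (0.08 to 0.43). USP10, which acts on recycled receptors, had 1754 counts (77.4 CPM) in siKAT7 and 1679 (69.0 CPM) in siControl, or 0.16 (0.07 to 0.26). The lower pair were USP12 and USP46, given above. USP8, which works with STAM on endosomes, had 94.06 counts in siKAT7 and 107.03 in siControl, or -0.08 (-0.50 to 0.33). The pseudogene USP8P1 held more counts than USP8 itself, 439.92 in siKAT7 and 468.28 in siControl, and fractional values in both entries show that reads were divided. Summed, USP8 and USP8P1 gave -0.0047 (-0.18 to 0.17).

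Members that recycle free ubiquitin or sit on the proteasome stayed near 0. USP5, which takes apart unanchored ubiquitin chains, had 4169 counts (184 CPM) in siKAT7 and 4889 (201 CPM) in siControl, or -0.13 (-0.19 to -0.07). Its paralogue USP13 had 148 counts in siKAT7 and 155 in siControl, or 0.04 (-0.30 to 0.37). USP14, which is bound to the proteasome and trims chains there, had 504 counts in siKAT7 and 515 in siControl, or 0.07 (-0.11 to 0.25). All 3 intervals lay within 1.5-fold.

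Of the members at the mitochondrion and endoplasmic reticulum, USP19, which has a form anchored in the endoplasmic reticulum, was the abundant gene with the lowest ratio. USP19 had 2508 counts (111 CPM) in siKAT7 and 3383 (139 CPM) in siControl, or -0.33 (-0.40 to -0.25). USP30, an enzyme of the mitochondrial outer membrane, had 141 counts in siKAT7 and 160 in siControl, or -0.08 (-0.42 to 0.26). USP35 had 218 counts in siKAT7 and 217 in siControl, or 0.11 (-0.17 to 0.39).

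The signalling members held the 2 highest ratios of the family, with 1 of 8 measured higher and 3 lower by the interval. Of all measured genes, 23.0% were higher and 22.0% lower by the interval. USP15, which acts on TGF-beta receptors and SMADs, had 152 counts (6.70 CPM) in siKAT7 and 127 (5.22 CPM) in siControl, or 0.36 (0.01 to 0.71). Its paralogue USP4 had 324 counts (14.3 CPM) in siKAT7 and 423 (17.4 CPM) in siControl, or -0.28 (-0.50 to -0.07). The intervals of USP15 and USP4 did not overlap, and USP11, the other close relative, lay between them at -0.14. USP25 had 105 counts (4.63 CPM) in siKAT7 and 88 (3.62 CPM) in siControl, or 0.35 (-0.07 to 0.78), and the ratio of its paralogue USP28 was also above 0, with both intervals including 0. USP9X, which acts on SMAD4 and MCL1, had 454 counts (20.0 CPM) in siKAT7 and 428 (17.6 CPM) in siControl, or 0.19 (-0.01 to 0.38). USP31 had 214 counts in siKAT7 and 286 in siControl, or -0.32 (-0.58 to -0.06).

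USP18 takes the ubiquitin-like protein ISG15 off its targets and restrains interferon signalling. It had 207.88 counts (9.17 CPM) in siKAT7 and 288.27 (11.8 CPM) in siControl, or -0.37 (-0.63 to -0.11). USP41 is a close copy of USP18, and with its counts added the ratio was -0.39 (-0.65 to -0.13). ISG15 itself had a log2 ratio of 0.38, with an interval above 0. The list of the ISG15 system had 0 of 6 measured genes higher and 0 lower at 1.5-fold, beside 3.92% and 3.91% of all measured genes. By the interval alone 3 of the 6 were higher and 1 lower, beside 23.0% and 22.0%. The list had 3 ratios on each side of 0 and a median of 0.02.

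Of the nucleolar and splicing members all 3 had ratios below 0, as did 50.7% of all measured genes, or 66.0% under total-count scaling. By the interval 2 of the 3 were lower, beside 22.0% of all measured genes. USP42 had 312.01 counts (13.8 CPM) in siKAT7 and 456 (18.7 CPM) in siControl, or -0.44 (-0.66 to -0.23). USP36, a nucleolar enzyme related to USP42 in sequence, had 1260 counts (55.6 CPM) in siKAT7 and 1494 (61.4 CPM) in siControl, or -0.14 (-0.25 to -0.03). USP39, a spliceosome factor that lacks the catalytic residues of the family, had 2959 counts (130.5 CPM) in siKAT7 and 3285 (135 CPM) in siControl, or -0.05 (-0.12 to 0.02). The interval of USP39 included 0 at 6244 summed counts.

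Of the remaining members, USP40 had 96 counts (4.23 CPM) in siKAT7 and 139 (5.71 CPM) in siControl, or -0.43 (-0.82 to -0.05). USP45, the paralogue of USP16, had 37 counts (1.63 CPM) in siKAT7 and 55 (2.26 CPM) in siControl, or -0.46 (-1.11 to 0.16). USP16 and USP45 had nearly equal ratios, but counting error left that of USP45 wide. USP53, which is linked to cell junctions, had 142 counts (6.26 CPM) in siKAT7 and 128 (5.26 CPM) in siControl, or 0.25 (-0.10 to 0.61). USP20, USP24, USP32, USP33, USP34, USP38, USP47, USP48 and USP49, in the groups above, had ratios from -0.20 to 0.21 and intervals that included 0. USP43 and USP54 had ratios of 0.18 and -0.15, with intervals that included 0.

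**Figure D3:**
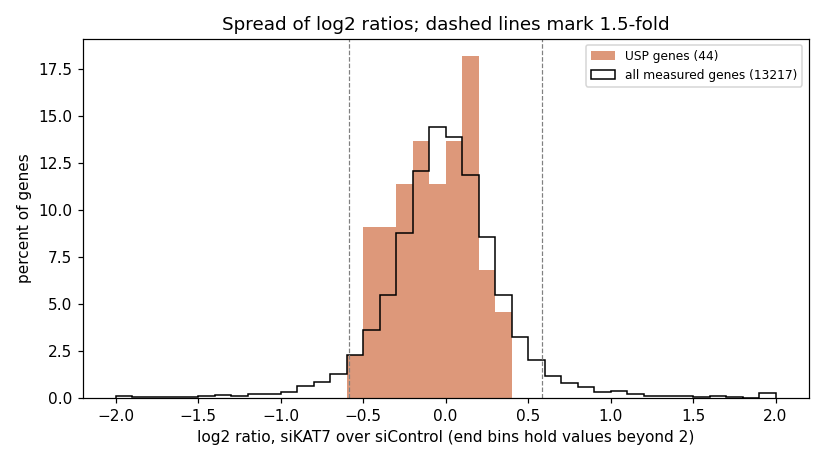
The histogram gives the percent of genes in each step of log2 ratio, siKAT7 over siControl, for the 44 measured USP genes (filled) and all 13217 measured genes (line), with dashed lines at 1.5-fold. The USP genes lie between -0.50 and 0.36, while the line has tails beyond the dashed lines on both sides.

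The spread of the family was compared with that of all measured genes as a description. The SD of the log2 ratio was 0.24 over the 44 USP genes and 0.43 over all measured genes. The spread differed with the level. The 4 USP genes at 1 to 3 CPM had an SD of 0.28, beside 0.76 over all genes. The 18 at 3 to 10 CPM had an SD of 0.27, beside 0.44, and the 17 at 10 to 100 CPM one of 0.23, beside 0.25. The 5 USP genes at 100 CPM or more, which are USP5, USP11, USP19, USP22 and USP39, all had ratios below 0, with a median of -0.14, beside a median of 0.07 over the 1758 genes of that class. Gene length also moved with the ratio over all genes, with medians of 0.08 under 2000 bases, -0.03 at 2000 to 5000 and -0.06 at 5000 and above. Only 1 measured USP gene, USP18, is under 2000 bases long, and the part of length in the members' ratios was not tested. The medians were -0.08 for the 21 USP genes of 2000 to 5000 bases and -0.02 for the 22 of 5000 and above.

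Counting precision was enough to place most members within 1.5-fold. For 31 of the 44, or 70.5%, the whole interval lay inside 1.5-fold in both directions, beside 66.3% of all measured genes. The other 13 were USP1, USP15, USP16, USP18, USP24, USP25, USP27X, USP40, USP42, USP45, USP46, USP47 and USP53, for which counting error allows a difference of that size. By the authors' deposited table, 0 of the 44 members were marked significant, beside 1.48% of all measured genes. The authors' log2 folds had a median of -0.19 over the members, against -0.08 with TMM. Total-count scaling also gave -0.19, beside -0.11 over all measured genes. The same 6 members changed sign from TMM with the authors' folds and with total counts. The authors' folds were therefore not a separate check on the direction. The authors' mark did not rest on their adjusted p-value alone, because members with a small adjusted p-value, such as USP22, were left unmarked. No source used here names the tool behind the authors' p-values, and a p between 2 libraries compares those libraries, not the conditions.

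**Figure D4:**
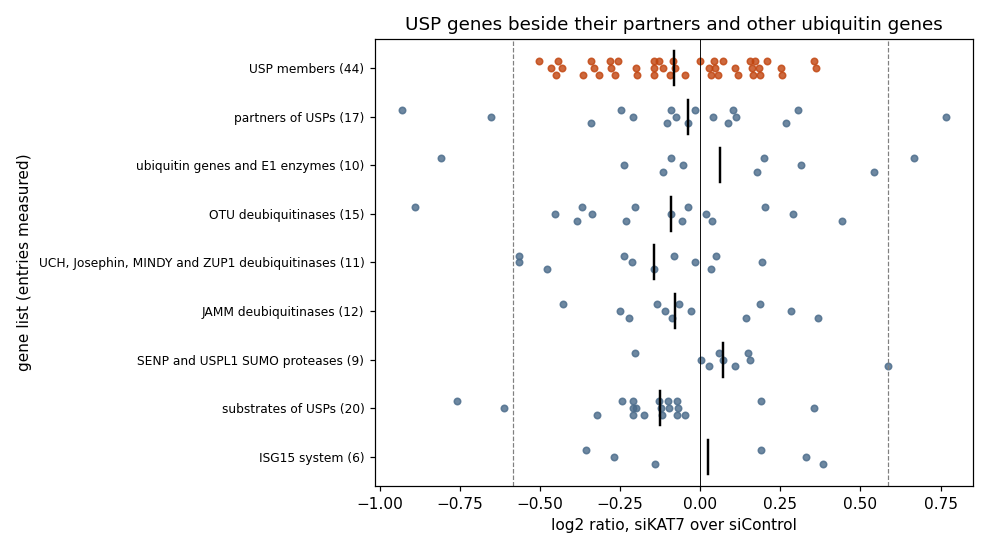
The x axis gives the log2 ratio, siKAT7 over siControl, for the measured USP genes (top row) and for lists of their partners, substrates and other ubiquitin system genes; points are entries, black ticks medians and dashed lines 1.5-fold. The USP row lies wholly inside the dashed lines, while 5 of the 8 other lists have a point past at least 1 of them.

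Other parts of the ubiquitin system held a few genes past the limit. NAE1, a subunit of the enzyme that activates the ubiquitin-like protein NEDD8, had 137 counts in siKAT7 and 258 in siControl and was 1.75-fold lower. UBB, which encodes a chain of ubiquitin repeats, had a log2 ratio of 0.32, under the limit. The 10 measured genes of the list of ubiquitin genes and activating enzymes had a median of 0.06, which turned to -0.05 under total-count scaling.

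The other deubiquitinase families also had few genes past the limit. Over all measured genes 3.92% were higher and 3.91% lower, or 6.37% lower under total-count scaling. Of 15 measured OTU genes 0 were higher and 1 was lower, OTUD6B, with 39 counts in siKAT7 and 78 in siControl, 1.85-fold lower. Of 11 UCH, Josephin, MINDY and ZUP1 genes and 12 JAMM genes 0 were higher and 0 lower, though under total-count scaling 2 of those 11 were lower. The medians were -0.09, -0.14 and -0.08 in that order. Among 9 measured SUMO proteases, SENP7 was higher, at 0.59 (0.03 to 1.16) on 66.04 counts in siKAT7 and 47 in siControl, close to the limit of 0.58, and it was under the limit with DESeq2 size factors.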

How the data were processed

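Gene-level expected counts of 1 library per group were deposited, made with RSEM 1.3.3 on GRCh38.p13 per the submitters' processing notes. The aligner, the annotation release and the strand setting are not named in any source used here. Both count columns are repeated with 0 differing cells and were used once. The 331 rows without a gene name, 1.67% of counts in siKAT7 and 1.11% in siControl, were left out. The authors' deposited table adds the fold, a ratio with siKAT7 on top. The authors also deposited the log2 of that ratio. Raw and adjusted p-values complete the authors' columns.

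Expected counts were rounded to whole numbers and scaled with TMM (edgeR 4.0.16, R 4.3.3; factors 0.964 for siKAT7 and 1.04 for siControl). Log2 ratios used a prior count of 0.5, and intervals came from the split of each gene's counts (scipy 1.17.1). Genes needed a mean of 1 CPM. The procedure was tested on simulated counts. Of the 51 members 13 have fractional counts, so RSEM divided reads among gene models. Positions and exon overlaps came from GENCODE 29 on GRCh38, and promoter windows from RefSeq on GRCh38.p14.

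The members, their role groups and the gene lists were chosen with earlier results of these data known. All 134 list symbols were found. Values in both libraries are given for the 5 members with the highest and the 5 with the lowest ratio, the 5 highest per length, members chosen for their roles, copies that share reads, and up to 4 list genes past the limit. Further members with an interval that excluded 0, and list genes given by their ratio alone, were named after their values were seen. Some list genes are not reported here. The alternatives tried were a prior count of 5, DESeq2 1.42.0 size factors, scaling to total counts, other filters and limits, the authors' folds, and summed copies.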

Additional observations from a re-analysis of the deposited data

How the results depend on the processing

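The numbers of USP members past 1.5-fold were unchanged at 0 higher and 0 lower with DESeq2 size factors, a prior count of 5, every gene with a count, a mean of at least 10 CPM, a 99% interval and a 2-fold limit. Total-count scaling gave 1 lower and a median of -0.19, and the authors' log2 fold in the authors' deposited table gave 1 lower and -0.19. Without a fold limit 4 members were higher and 15 lower. The median lay between -0.14 (at least 10 CPM) and -0.08 (a prior count of 5) under the other alternatives. The KAT7 ratio ran from -0.63 to -0.52. Summing each of 7 members with the copy or antisense gene named for it left every ratio inside that member's interval; 4 of these sums, with antisense genes, were chosen after seeing the data. Depth limits the sparse members, since 13 of 44 intervals reach past 1.5-fold. No paired analysis was possible because each group had 1 library, and for the same reason no library could be left out.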

Other observations

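Antisense transcripts of USP genes had few counts. USP46-AS1 had 1 count in siKAT7 and 9 in siControl, USP3-AS1 had 0 and 8.03, and USP27X-AS1 had 7 and 7, in the same order. USP2-AS1 had 93 counts in siKAT7 and 105 in siControl, and AP003396.3, an antisense gene that shares 793 exon bases with USP2 in GENCODE 29, had 33.27 counts in siKAT7 and 0 in siControl. Without the strand setting, reads of a gene and of an overlapping antisense gene cannot be told apart. With USP2-AS1 added, the USP2 ratio was 0.20 (0.04 to 0.37). USP2-AS1 shares no exon bases with USP2 in that annotation, and AP003396.3 was not added. USP37 shares 3045 exon bases with VIL1 on the opposite strand, and VIL1 had 11.77 counts in siKAT7 and 15.27 in siControl. USP34 shares 3263 exon bases with AHSA2P, which had 121.67 counts in siKAT7 and 159.51 in siControl beside 179.33 and 221.49 for USP34.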
